A study of Mus musculus with 8 samples.

Results

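The genes described here encode smooth muscle actin and the proteins that assemble with it into contractile fibres. They were chosen as every probe set of the array annotated to exactly 1 gene among 10 listed symbols, namely Acta2, Tagln, Tagln2, Cnn1, Cnn2, Myl9, Tpm1, Tpm2, Actn1 and Cald1. This gave 20 probe sets of 8 genes, out of 45141 probe sets in all and 28898 annotated to exactly 1 gene. Tagln had only a probe set that it shares with Pcsk7, and no probe set was annotated to Tagln2 in the table used, so both genes have no value here. Tpm2 had 4 probe sets, Cald1 5, Tpm1 and Actn1 3 each, Acta2 2, and Cnn1, Cnn2 and Myl9 1 each.

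The samples were dermal fibroblasts from back skin of 8 mice, 1 array for each animal. GW9662 binds the nuclear receptor PPARG covalently and blocks it. In 4 mice the skin received 150 nmol of it in 300 µl of acetone, and in the other 4 the same volume of acetone served as vehicle. Both groups were 12 months old at the start and had 3 applications a week over 6 months. The labels give neither strain nor sex nor any genetic change. After removal of the subdermis and collagenase digestion, cells positive for Pdgfra and CD34 and negative for CD45, CD117, CD24, CD31 and EpCam were sorted. RNA from 5000 cells was amplified over 21 cycles before hybridisation. The design text states that 1 animal of each group was killed on the same day, and same-numbered samples were read as those pairs.

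Fibroblasts of healthy dermis carry little smooth muscle actin. When they become myofibroblasts, as in wounds and fibrosis, mechanical tension and TGF-beta act through the serum response factor SRF and its actin-sensing cofactor MRTF to raise Acta2 and its partners. Actin and tropomyosin form the thin filament, caldesmon and calponin bind along it, the myosin regulatory light chain is the switch of the motor, and alpha-actinin ties filaments together. PPARG agonists are known to oppose this conversion in cultured fibroblasts.

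SRF binds a sequence called the CArG box, and TEAD factors, the partners of YAP, bind GGAATG. Both were looked for on either strand in the 250 bases before the start of each gene in the RefSeq promoter table. The table held 10 promoters of 9 of the 10 listed genes, 2 of them of Cald1. A few upstream regions are shown: those of Acta2 and Cnn2, whose levels had the highest correlation among the genes measured, and that of Myl9, which was lower after GW9662 in every same-day pair. Capitals mark a CArG box, a CArG-like sequence with 1 of its 6 middle letters being G or C, or a TEAD site.
Acta2, GRCm38.p6 chr19:34255374-34255623, minus strand: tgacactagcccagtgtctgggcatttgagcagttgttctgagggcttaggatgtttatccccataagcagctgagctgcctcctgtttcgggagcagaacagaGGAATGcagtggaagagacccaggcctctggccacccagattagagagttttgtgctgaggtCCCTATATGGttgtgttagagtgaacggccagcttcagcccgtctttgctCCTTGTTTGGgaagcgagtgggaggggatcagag
Cnn2, GRCm38.p6 chr10:79988350-79988599, plus strand: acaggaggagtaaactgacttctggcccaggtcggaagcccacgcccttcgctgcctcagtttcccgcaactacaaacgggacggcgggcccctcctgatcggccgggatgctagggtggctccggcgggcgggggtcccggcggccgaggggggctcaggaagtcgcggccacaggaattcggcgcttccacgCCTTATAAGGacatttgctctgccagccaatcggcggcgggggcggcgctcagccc
Myl9, GRCm38.p6 chr2:156775214-156775463, plus strand: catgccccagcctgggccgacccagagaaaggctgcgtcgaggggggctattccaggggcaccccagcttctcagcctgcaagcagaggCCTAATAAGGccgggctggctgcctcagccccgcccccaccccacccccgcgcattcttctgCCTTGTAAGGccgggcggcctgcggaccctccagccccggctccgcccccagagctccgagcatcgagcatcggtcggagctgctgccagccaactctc
The CArG box at Cnn2 is CCTTATAAGG, 56 to 47 bases before the start, and that of Myl9 is CCTAATAAGG, 161 to 152 bases before it. Acta2 had no exact CArG box in this window. It had the CArG-like sequences CCCTATATGG at 84 to 75 bases and CCTTGTTTGG at 34 to 25 bases before the start, and GGAATG at 146 to 141 bases. Myl9 also had the CArG-like CCTTGTAAGG at 99 to 90 bases. An exact CArG box was found in 2 of the 10 promoters and in 1.47% of all 32851 promoters. A CArG-like sequence was found in 2 of the 10 and in 7.24% of all. GGAATG was found in 4 of the 10, those of Acta2, Tpm1, Cald1 and Tagln2, and in 12.64% of all. The motifs do not overlap one another in these windows. These matches describe the letters of the windows, and no binding was measured.

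The values are log2 signals, so a difference of 1 between groups is a doubling of signal. All probe sets of the 8 samples had medians between 4.63 and 4.69. Probe sets differ in how strongly they bind, so their levels cannot be ranked as amounts of transcript. Without detection calls, a dim probe set may or may not have been above background. The labelled cell type was checked against its markers. The 8 fibroblast markers averaged 10.05 to 10.18 in GW9662 samples and 9.91 to 10.21 in vehicle samples, led by collagens and decorin. Pdgfra itself read low, 4.96 ± 0.17 in GW9662 samples and 4.86 ± 0.23 in vehicle samples on its brightest probe set. The 8 measured of 10 markers of vascular smooth muscle and pericytes, which also carry the contractile genes, averaged 4.62 to 4.81 in GW9662 samples and 4.72 to 4.90 in vehicle samples. Gene means in that list ran from 3.69 to 7.86, the highest being the pericyte marker Kcnj8, at 7.66 ± 0.37 in GW9662 samples and 8.05 ± 0.25 in vehicle samples (SD, n = 4 each). On the first principal component vehicle 4 lay far out, at 22.2, where the remaining samples ran from -10.4 to 5.49.

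No contractile gene passed the test between GW9662 and vehicle fibroblasts. In limma, 0 of the 20 probe sets had an adjusted p under 0.05, as did 0 of all 28898 (0%). Each of the 20 had an adjusted p of 0.997. An unadjusted p under 0.05 was reached by 2 of the 20, Actn1 1452415_PM_at and Cald1 1433146_PM_at, beside 3.54% of all probe sets. Both were higher, beside 1.85% of all that were higher at that threshold. With the replicate number as a block there were 5, beside 5.05%, again with none past adjustment (lowest adjusted p = 0.946 in limma). The groups did not overlap in 0 of the 20, beside 1.92% of all. By any amount 14 were higher and 6 lower, where 48.3% of all were higher. The median log2 fold change was 0.08 over the 20 and -0.0025 over all probe sets. Fewer cells of a type and less RNA per cell cannot be told apart in such samples.

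**Figure D1:**
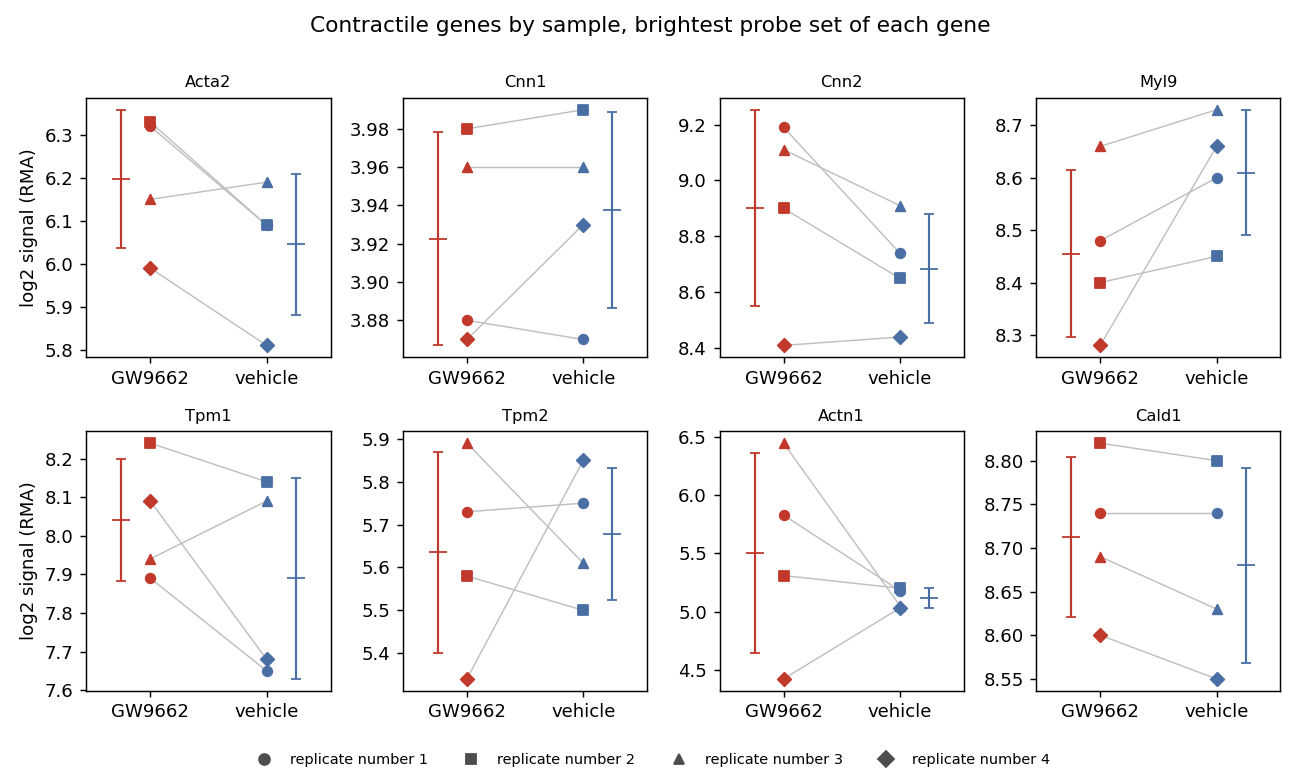
Log2 signal (y axis, a separate range in each panel that does not start at 0) of the brightest probe set of each of the 8 contractile genes in GW9662 samples (red) and vehicle samples (blue). Symbols mark the replicate number, grey lines join same-numbered samples, and bars beside the points are mean ± SD (n = 4 per group). The groups overlap in all 8 panels, and the Actn1 points spread from 4.42 to 6.45 in GW9662 samples against 5.03 to 5.20 in vehicle samples.

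Acta2 encodes smooth muscle alpha-actin, the defining thin filament actin of myofibroblasts. Its brighter probe set, 1416454_PM_s_at, read 6.32, 6.33, 6.15 and 5.99 in GW9662 samples 1 to 4, against 6.09, 6.09, 6.19 and 5.81 in vehicle samples 1 to 4. GW9662 samples 1 and 2 were above all vehicle samples, and the other 2 lay within the vehicle range. The log2 fold change was 0.15 ± 0.10 (SE), with a 95% interval from -0.07 to 0.38. Without vehicle 4, the lowest sample, it was 0.07. The other probe set, 1456658_PM_at, read 4.75, 4.81, 4.69 and 4.58 in GW9662 samples, against 4.63, 4.98, 4.96 and 4.52 in vehicle samples. Here the GW9662 values lay inside the vehicle range, with a log2 fold change of -0.07 ± 0.11, so the probe sets of Acta2 differed in sign. A probe set name ending in _s_at means that its probes can match transcripts of more than 1 gene, and the actins are close relatives of each other.

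Tropomyosins lie along the actin filament and set which partners reach it. Tpm1 on probe set 1423721_PM_at read 7.89, 8.24, 7.94 and 8.09 in GW9662 samples, against 7.65, 8.14, 8.09 and 7.68 in vehicle samples. Sample 2 was the highest of its group in both, and the log2 fold change was 0.15 ± 0.13 (SE), between 0.07 without vehicle 1 and 0.23 without vehicle 2. On 1423049_PM_a_at, Tpm1 was higher after GW9662 in 4 of 4 pairs, by 0.08 to 0.16, with a log2 fold change of 0.12 ± 0.11. The third Tpm1 probe set, 1456623_PM_at, gave 0.0075 ± 0.13. The groups of 1423049_PM_a_at overlapped: 6.80 to 7.16 in GW9662 samples, against 6.64 to 7.05 in vehicle samples.

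Tpm2 encodes beta-tropomyosin, and its probe sets fell into different patterns. The brightest, 1419739_PM_at, read 5.73, 5.58, 5.89 and 5.34 in GW9662 samples, against 5.75, 5.50, 5.61 and 5.85 in vehicle samples. Its log2 fold change was -0.04 ± 0.12 (SE). Probe set 1419738_PM_a_at read 4.82, 4.86, 5.94 and 4.73 in GW9662 samples, against 4.37, 4.54, 4.92 and 4.32 in vehicle samples. GW9662 3 was more than 1 unit above the rest of its group, and vehicle 3, its partner, was the highest vehicle sample. The log2 fold change of 0.55 ± 0.25 was the largest among the 20 probe sets. It had a 95% interval from -0.0082 to 1.11, and was higher in 4 of 4 pairs, by 0.45, 0.32, 1.02 and 0.41. Without GW9662 3 it was 0.27. With the block the 95% interval was 0.28 to 0.82, the unadjusted p 0.0017 and the adjusted p 0.946 in limma. Probe set 1425028_PM_a_at gave the same order of samples at the top: 5.56 in GW9662 3 and 4.96 in vehicle 3, with the other 6 samples between 4.50 and 4.80. Its log2 fold change was 0.29 ± 0.20, 0.07 without GW9662 3, and it was higher in 4 of 4 pairs. Probe set 1449577_PM_x_at gave 0.04 ± 0.09 and again had its highest value, 4.59, in GW9662 3. Over the 8 samples 1419738_PM_a_at and 1425028_PM_a_at correlated at r = 0.97, and 1419738_PM_a_at with the brightest set at 0.29. Of all probe sets, 5.71% were higher in 4 of 4 pairs and 5.72% lower, beside 4 and 2 of the 20 contractile probe sets.

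Actn1 encodes alpha-actinin 1, which crosslinks actin in stress fibres and anchors them at adhesions. Probe set 1427385_PM_s_at read 5.83, 5.31, 6.45 and 4.42 in GW9662 samples, against 5.18, 5.20, 5.05 and 5.03 in vehicle samples. The GW9662 samples lay on both sides of the vehicle samples, 3 above and 1 below, with an SD of 0.86 in GW9662 samples and 0.09 in vehicle samples. The log2 fold change was 0.39 ± 0.34 (SE), with a 95% interval from -0.37 to 1.14. It was 0.07 without GW9662 3 and 0.75 without GW9662 4. Probe set 1452415_PM_at read 5.07, 4.94, 5.12 and 4.84 in GW9662 samples, against 4.90, 4.78, 4.81 and 4.80 in vehicle samples. All but GW9662 4 were above every vehicle sample, and GW9662 4 was below vehicle 1 alone. Its log2 fold change was 0.17 ± 0.07, higher in 4 of 4 pairs (limma unadjusted p = 0.0417, adjusted p = 0.997), and 0.13 to 0.22 with any 1 sample left out. Probe set 1428585_PM_at gave 0.12 ± 0.12, and -0.011 without GW9662 3. All 3 Actn1 probe sets had their highest value in GW9662 3, and they correlated with one another at r = 0.78 to 0.87 over the 8 samples.

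**Figure D2:**
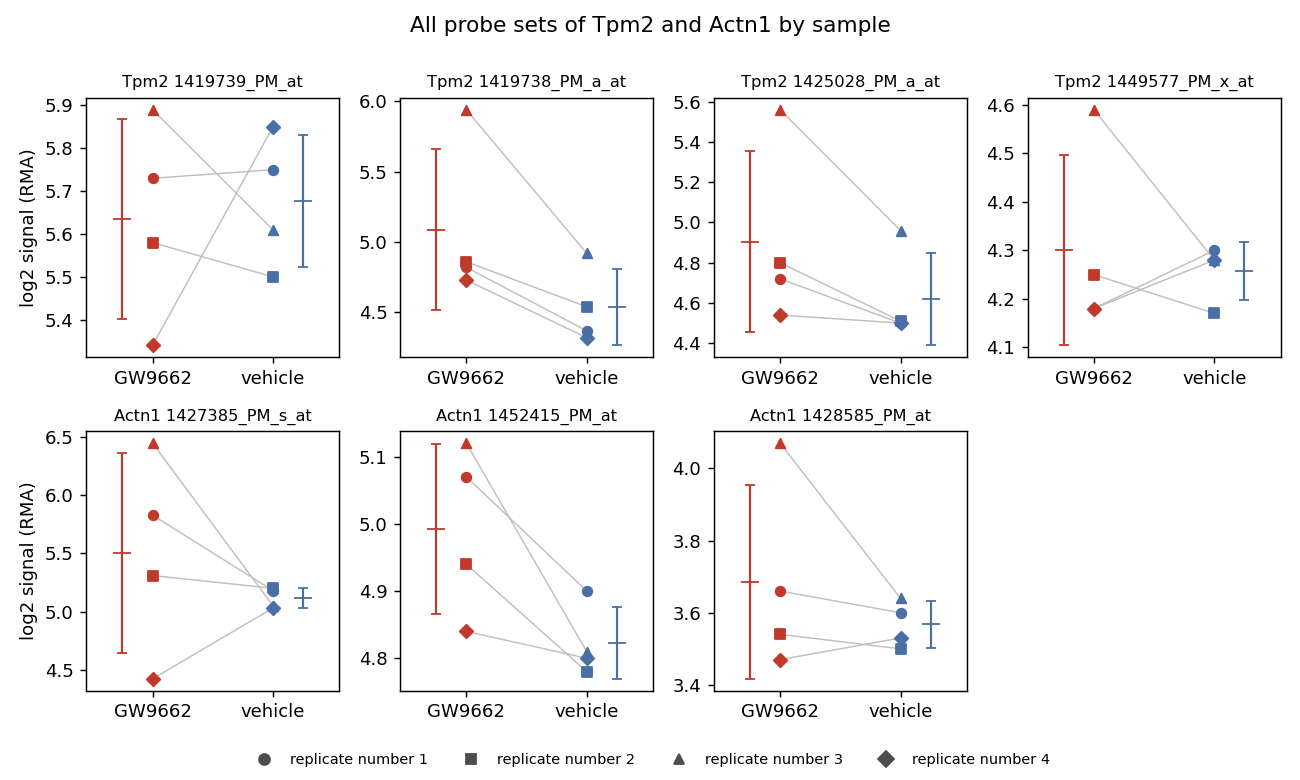
Log2 signal (y axis, a separate range in each panel that does not start at 0) of the 4 probe sets of Tpm2 and the 3 of Actn1 in GW9662 samples (red) and vehicle samples (blue). Symbols mark the replicate number, grey lines join same-numbered samples, and bars are mean ± SD (n = 4 per group). GW9662 3 (red triangle) is the highest sample in all 7 panels.

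The calponin family stabilises actin filaments and is represented here by 2 genes. Cnn2, the calponin found outside muscle as well as in it, read 9.19, 8.90, 9.11 and 8.41 in GW9662 samples, against 8.74, 8.65, 8.91 and 8.44 in vehicle samples. Replicate number 4 was the lowest of both groups. The log2 fold change was 0.22 ± 0.16 (SE), with a 95% interval from -0.15 to 0.58, and lay between 0.12 without GW9662 1 and 0.38 without GW9662 4. With the block its unadjusted p was 0.0360 and its adjusted p 0.946 in limma. Cnn1, the calponin of differentiated smooth muscle, read 3.88, 3.98, 3.96 and 3.87 in GW9662 samples, against 3.87, 3.99, 3.96 and 3.93 in vehicle samples. The 8 values of Cnn1 spanned 0.12, the smallest range of the 20 probe sets, below the sample medians. Its log2 fold change was -0.015 ± 0.06, with a 95% interval from -0.14 to 0.11.

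Myl9 encodes the regulatory light chain whose phosphorylation starts contraction. It read 8.48, 8.40, 8.66 and 8.28 in GW9662 samples, against 8.60, 8.45, 8.73 and 8.66 in vehicle samples. It was lower after GW9662 in 4 of 4 pairs, by 0.12, 0.05, 0.07 and 0.38, though the groups overlapped. The log2 fold change was -0.16 ± 0.09 (SE), with a 95% interval from -0.36 to 0.05 (limma unadjusted p = 0.122, adjusted p = 0.997). It was -0.10 without GW9662 4.

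Cald1 encodes caldesmon, which holds back the motor on the actin filament. Its brightest probe set, 1424769_PM_s_at, read 8.74, 8.82, 8.69 and 8.60 in GW9662 samples, against 8.74, 8.80, 8.63 and 8.55 in vehicle samples. The samples of 1 number differed by at most 0.06, and the log2 fold change was 0.03 ± 0.07 (SE). Probe set 1424770_PM_at was lower in 4 of 4 pairs, with a log2 fold change of -0.08 ± 0.07, and 1424768_PM_at gave -0.12 ± 0.08. Probe set 1433147_PM_at gave 0.03 ± 0.12. Probe set 1433146_PM_at read 5.51, 5.74, 5.63 and 5.87 in GW9662 samples, against 5.31, 5.25, 5.63 and 5.56 in vehicle samples. All but 1 of the GW9662 values lay at or above the highest vehicle value, and the fold change was 0.25 ± 0.11 (limma unadjusted p = 0.0399, adjusted p = 0.997). The 5 probe sets thus gave 3 values above 0 and 2 below. Correlations between them over the 8 samples ran from -0.42 to 0.78.

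**Figure D3:**
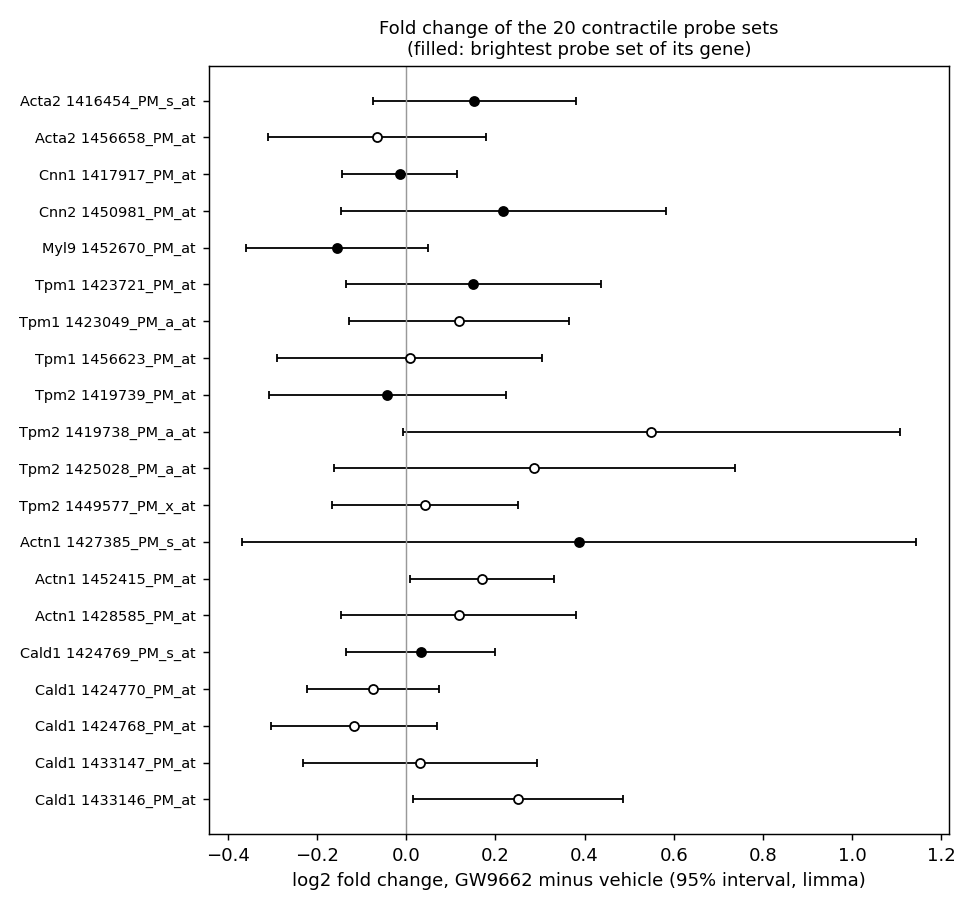
Log2 fold change, GW9662 minus vehicle (x axis), of the 20 contractile probe sets with the 95% interval of the limma fit (n = 4 per group). Filled points are the brightest probe set of a gene. The fit shown has no replicate block. In it the intervals of Actn1 1452415_PM_at and Cald1 1433146_PM_at lie above 0 and the other 18 include it. With the block, not drawn, 5 intervals lie above 0. They are those 2 and Tpm2 1419738_PM_a_at (0.28 to 0.82), Tpm2 1425028_PM_a_at (0.07 to 0.51) and Cnn2 (0.02 to 0.42).

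With 1 brightest probe set for each of the 8 genes, 5 were higher after GW9662 and 3 lower, where 47% of all 17097 genes were higher. The mean of the 8, set to 0 over all samples, was 0.13, 0.07, 0.23 and -0.25 in GW9662 samples, against -0.05, -0.02, 0.02 and -0.13 in vehicle samples. Its difference was 0.09 ± 0.11 (SE, n = 4 per group), and 0.18, 0.09, 0.21 and -0.12 in pairs 1 to 4. GW9662 samples 1 to 3 were above all vehicle samples and GW9662 4 was below them all. The difference was 0.03 without GW9662 3 and 0.19 without GW9662 4. The SD was 0.21 in GW9662 samples and 0.06 in vehicle samples. Among the 20 probe sets, 12 had the larger SD in GW9662 samples, as did 40.3% of all probe sets. The contractile probe sets varied more between animals of a group than most: 16 of 20 had a residual SD above the median of all probe sets and 5 lay above the 90th percentile. The 1427385_PM_s_at set of Actn1 was at the 99.8th percentile and Cnn1 at percentile 6.41. The lowest of the 8 samples was GW9662 4 for 6 probe sets and vehicle 4 for 7, ties included. GW9662 3 was the highest for 7, namely the 4 probe sets of Tpm2 and the 3 of Actn1. Such counts over all probe sets were not computed.

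Co-variation over the 8 samples was mostly positive. Of the 28 pairs among 8 genes, 21 had a positive Pearson's r, with a median of 0.31. In exact permutation tests 5 pairs had an unadjusted p under 0.05 and 0 remained under 0.05 after Benjamini-Hochberg adjustment over the 28 (3 and 0 for Spearman's rho). The permutations treated the 8 samples as exchangeable, so their p-values take no account of shared treatment or day. The same counts and median over pairs of all genes were not computed. The values here therefore cannot be read as particular to the contractile genes. Acta2 and Cnn2 gave r = 0.83 (exact permutation p = 0.0107, adjusted p = 0.15) and rho = 0.80 (p = 0.0211, adjusted p = 0.305). Without GW9662 2 and vehicle 4, the samples farthest from the median of Acta2, r was 0.90. Cnn2 and Actn1 gave r = 0.83 (exact permutation p = 0.0091, adjusted p = 0.15) and rho = 0.81 (p = 0.0218, adjusted p = 0.305), and r = 0.75 without GW9662 4 and vehicle 4. Myl9 and Tpm2 gave r = 0.75 (exact permutation p = 0.0315, adjusted p = 0.269) and rho = 0.73 (p = 0.0476, adjusted p = 0.324), and r = 0.90 without GW9662 4 and vehicle 3. With the mean of each gene's probe sets, Myl9 and Tpm2 gave 0.44, Acta2 and Cnn2 0.69, and Cnn2 and Actn1 0.82.

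The values of other pairs moved with the samples or probe sets used. For Acta2 and Cald1, r = 0.72 (exact permutation p = 0.0411, adjusted p = 0.269; rho = 0.66, p = 0.0820, adjusted p = 0.328) became 0.28 without GW9662 2 and vehicle 4, and 0.01 with the mean of each gene's probe sets. For Tpm2 and Actn1, r = 0.71 (exact permutation p = 0.0480, adjusted p = 0.269; rho = 0.38, p = 0.360, adjusted p = 0.560) became 0.02 without GW9662 3 and GW9662 4. It was 0.87 with the mean of each gene's probe sets, 0.88 without vehicle 4 and 0.80 for deviations from the group means. Tpm1 and Tpm2 gave the lowest value, r = -0.68 (exact permutation p = 0.0649, adjusted p = 0.303; rho = -0.71, p = 0.0578, adjusted p = 0.324). It was -0.62 without vehicle 1 and vehicle 4, and 0.20 with the mean of each gene's probe sets. A day holds only 2 samples, so no correlation could be computed within a day. With group means and days removed, 13 of 28 pairs were positive, with a median of -0.10. These values are those over the 4 differences within pairs. Acta2 and Cnn2 then stood at 0.22, Cnn2 and Actn1 at 0.56, and Myl9 and Tpm2 at 0.95. Tpm2 and Actn1 stood at 0.89, Acta2 and Cald1 at -0.78, and Tpm1 and Tpm2 at -0.93.

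**Figure D4:**
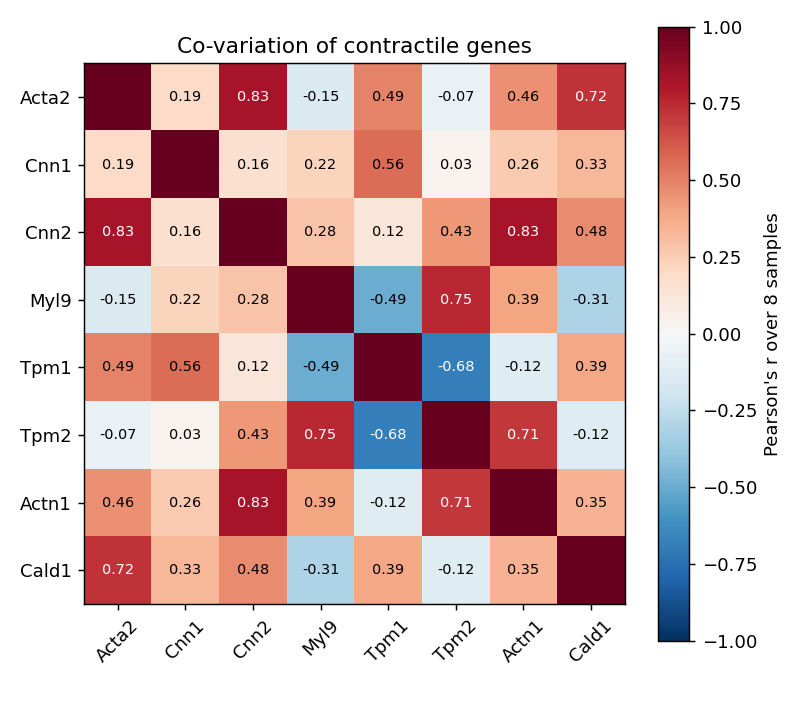
Pearson's r over the 8 samples between the 8 contractile genes (rows and columns), each by its brightest probe set, from blue at -1 to red at 1. Acta2 with Cnn2 and Cnn2 with Actn1 are at 0.83, and Tpm1 with Tpm2 is at -0.68.

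The genes outside the set with the pattern most like Acta2 were Psmd1, a proteasome subunit, at r = 0.98, Dpysl3, a cytoskeletal regulator of growing neurites, at 0.98, Dnajc18 at 0.97, Cs, citrate synthase, at 0.97, and Necap1 at 0.97. Those most like the mean of the 8 contractile genes were Synpo, synaptopodin, an actin-bundling protein, at r = 0.96, Fstl1 at 0.95, Extl3 at 0.95, Arpc5l, a subunit of the actin-nucleating Arp2/3 complex, at 0.95, and Col6a2, a collagen VI chain, at 0.94. These are the highest of 15406 genes over 8 samples that share days and treatment, and they are given as a description.

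Other genes of the contractile machinery also had no call. Of 16 paralogs of these genes, 13 were measured, with 10 higher and 2 lower and a median log2 fold change of 0.02. The members of smallest unadjusted p were Myl6, the essential light chain, at 0.09 ± 0.07 (SE), Cnn3 at 0.13 ± 0.12 and Actg1, cytoplasmic gamma-actin, at 0.11 ± 0.10. Actb, cytoplasmic beta-actin, was at 0.0075 ± 0.06. Of 16 genes of late smooth muscle differentiation, 15 were measured, with 5 higher and 10 lower and a median of -0.03. Myh11, the smooth muscle myosin heavy chain, read 4.60, 4.48, 4.27 and 4.56 in GW9662 samples, against 4.47, 4.26, 5.14 and 5.12 in vehicle samples. Vehicle 3 and 4 were the highest, and the log2 fold change was -0.27 ± 0.19. Kcnmb1, a potassium channel subunit of smooth muscle, was at 0.18 ± 0.08, Lmod1, a nucleator of actin filaments in smooth muscle, at -0.10 ± 0.07, and Des, desmin, at -0.013 ± 0.12. Among pericyte markers Kcnj8, a channel subunit, was at -0.39 ± 0.18, Higd1b at 0.16 ± 0.07 and Rgs5 at -0.11 ± 0.11. The part of such cells in the values of the contractile genes was not tested.

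Stress fibre and focal adhesion genes, 19 of 20 measured, were higher in 11 and lower in 8, with a median log2 fold change of 0.0075. Zyx, zyxin, which gathers at strained stress fibres, was at -0.21 ± 0.11 (SE), Pxn, paxillin, at -0.14 ± 0.07 and Svil, supervillin, at -0.13 ± 0.10. Among regulators, 19 of 21 were measured, with 8 higher and 11 lower and a median of -0.01. Srf was at 0.11 ± 0.09, Mrtfa at -0.10 ± 0.07, Myocd, the muscle cofactor of SRF, at -0.05 ± 0.07 and Rhoa, the switch of stress fibre assembly, at 0.05 ± 0.06. Mylk, the kinase of the regulatory light chain, read 8.52, 7.31, 8.10 and 7.82 in GW9662 samples, against 8.31, 7.92, 6.91 and 7.32 in vehicle samples. It ranged widely in both groups, at 0.32 ± 0.32. The subunits of myosin phosphatase, which reverses that kinase, were at 0.19 ± 0.09 (Ppp1cb) and 0.21 ± 0.12 (Ppp1r12a).

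TGF-beta signalling and myofibroblast matrix genes, 19 of 20 measured, were higher in 12 and lower in 6, with a median log2 fold change of 0.03 over the list and -0.005 over all genes. Itgav, an integrin chain that releases TGF-beta from its latent form, was at 0.23 ± 0.10 (SE), Tgfb1 at -0.28 ± 0.13 and Postn, periostin, at 0.61 ± 0.29. Lrrc15, a surface protein of TGF-beta-driven myofibroblasts, was not among the genes selected for mention and was added after its values were seen. It read 7.42, 6.88, 8.36 and 5.88 in GW9662 samples, against 6.61, 6.44, 6.49 and 5.09 in vehicle samples. GW9662 3 was the highest and vehicle 4 the lowest, and the log2 fold change of 0.98 ± 0.49 was the largest of any list. By the brightest probe set, none of all 17097 genes had a higher one, so Lrrc15 is an extreme of the whole array. In these 5 lists 1 gene, Itgav, had an unadjusted p under 0.05 in limma, beside 3.37% of all genes. None had an adjusted p under 0.05. Pparg, the gene of the inhibited receptor, was at -0.02 ± 0.15.

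**Figure D5:**
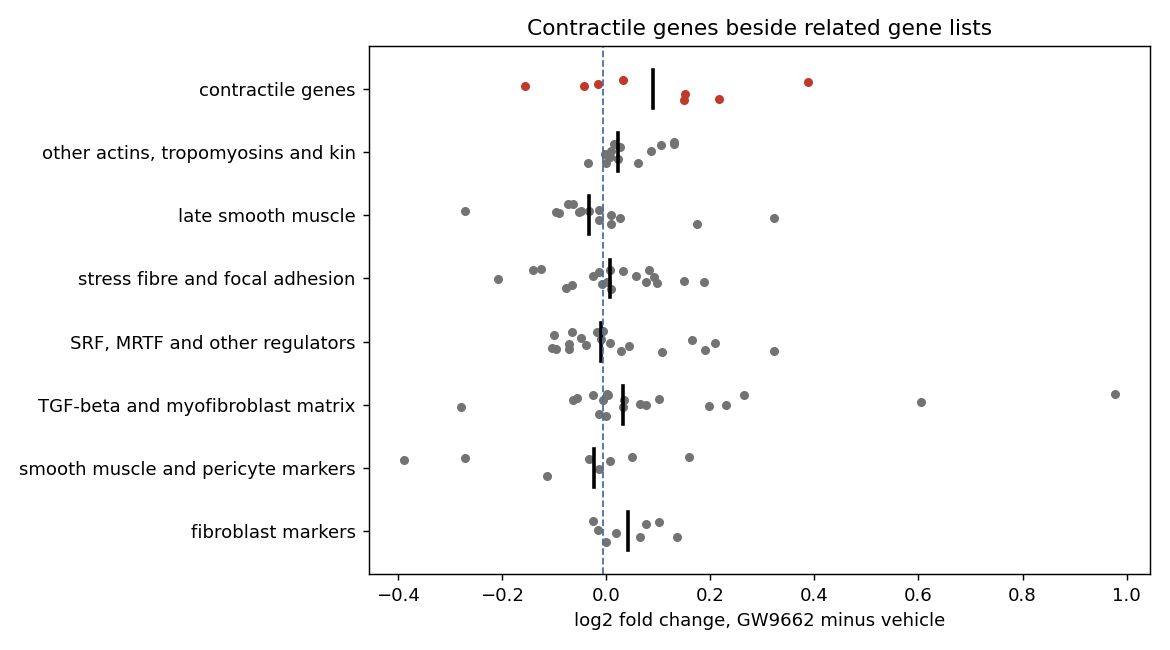
Log2 fold change, GW9662 minus vehicle (x axis), of the measured genes of each list (rows), 1 point per gene by its brightest probe set, with the list median as a black bar. The dashed line is the median of all genes, -0.005. The contractile genes (red) run from -0.16 to 0.39.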

How the data were processed

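The deposited values are log2 signal intensities to 2 decimals. Per the submitters' processing notes they came from RMA in the affy package, with no version named. RMA removes background, makes array distributions alike and gives each probe set 1 value. No source states the base of the logarithm, and base 2 was inferred from how far the values extend. All value columns were mapped to samples (0 were not). Names came from the platform annotation, updated by gene number from a RefSeq table. Of the probe sets, 28898 had 1 gene, 551 several and 15692 none.

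The test of GW9662 minus vehicle was that of limma 3.58.1 under R 4.3.3 (lmFit and eBayes without covariate or filter) over the 28898 probe sets, two-sided, with Benjamini-Hochberg adjustment. The brightest probe set over the 8 samples stood for a gene where 1 was needed. The design had assumed 10 genes and 45 gene pairs, and 8 genes and 28 pairs were measured. Correlations used exact permutation over the orders of the samples. Alternatives were the replicate block, trend and robust variances, brighter probe sets, other sets of features, renewed normalisation, array weights and each sample left out. Fits without vehicle 4 and GW9662 4, correlations without vehicle 4 or with days removed, and CArG-like sequences were added after seeing the data. The procedure was tested on simulated data.

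Across genes, deviations from the mean of the group had correlations of 0.203, 0.163, 0.114 and 0.165 between samples of numbers 1 to 4, and the design text describes same-day animals, so the numbers were read as pairs. Arrays have no read depth, and the number of animals limits the precision. The named genes were the 10 members, a fixed set of further genes, the 3 genes of smallest unadjusted p in each list, and the 5 genes most like Acta2 and most like the member mean, and 1 gene that this rule names is not reported here. The contractile genes and the lists were chosen with earlier results of these data known. Markers of skeletal muscle, endothelium, keratinocytes, leukocytes and adipocytes were also read.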

Additional observations from a re-analysis of the deposited data

Results flagged for a closer look

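A value was set aside for a second look where, among the 4 samples of a group, the gap between the highest or lowest and its nearest neighbour exceeded Dixon's 95% critical share of the range. This held for 5 of 40 tests (20 probe sets in 2 groups), where the rule would flag about 1 in 20 for normally distributed values. The share flagged among all probe sets was not computed, so the count cannot be read as an excess in the contractile genes. Probe sets of 1 gene also share their samples. Among GW9662 samples, Tpm1 1423049_PM_a_at was highest in GW9662 2 at 7.16, Tpm2 1419738_PM_a_at in GW9662 3 at 5.94 and Tpm2 1449577_PM_x_at in GW9662 3 at 4.59. Among vehicle samples, Tpm2 1425028_PM_a_at was highest in vehicle 3 at 4.96 and Tpm2 1449577_PM_x_at lowest in vehicle 2 at 4.17. In GW9662 3 the brightest probe set of Actn1 was also the highest, at 6.45, and in vehicle 3 it was 5.05.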

How the results depend on the processing

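Under every alternative run, 0 of the contractile probe sets passed adjustment in limma (lowest adjusted p = 0.926, without vehicle 4 and GW9662 4). Of the 28 correlations, 0 passed adjustment in the alternatives where it was computed. It was not computed with days removed. The count at an unadjusted p under 0.05, 2 of 20, was 5 with the replicate block, 1 with trend and robust variances, 1 of 12 among the brighter probe sets, 0 of 8 with 1 probe set per gene, 0 of 8 with probe sets averaged by gene, and 4 without vehicle 4 and GW9662 4. It was 0 at an unadjusted p under 0.01, and 0 (without vehicle 2) to 5 (without GW9662 4) with 1 sample left out. The share of all features at an unadjusted p under 0.05 in limma was 3.54% in the main fit and 5.05% with the block. It was 3.53% with trend and robust variances, 2.96% among brighter probe sets, 3.38% with 1 per gene and 3.12% with probe sets averaged. The share was 5.15% without vehicle 4 and GW9662 4, 4.82% without vehicle 2 and 5.24% without GW9662 4. The count of probe sets whose groups did not overlap, 0, was 3 without vehicle 4 and GW9662 4 (Actn1 1427385_PM_s_at and 1452415_PM_at, Cald1 1424768_PM_at) and 0 to 3 with 1 sample left out (3 without GW9662 4). Beside these, 9.32% and 5.38% of all probe sets did not overlap. The mean over the 8 genes ran from 0.03 to 0.19 with 1 sample left out. The sign turned in 21 of 328 fold changes under alternatives and was counted as held in 307. Many of the 307 could not turn. The replicate block, trend and robust variances, and the fits to brighter, all or 1 probe set per gene left each fold change unchanged. Cnn1 without vehicle 4 and GW9662 4 was at 0 and was also counted as held. For Tpm2 1419739_PM_at the sign turned with the mean of its probe sets (0.21), array weights (0.014) and without vehicle 4 and GW9662 4 (0.11). The sign turned for Tpm1 1456623_PM_at without those 2 samples (-0.093). With 1 sample left out it turned in some fits of Tpm2 1419739_PM_at (-0.13 to 0.056), Tpm1 1456623_PM_at (-0.071 to 0.16), Cnn1 (-0.0375 to 0.0025), Acta2 1456658_PM_at (-0.15 to 0.0042), Actn1 1428585_PM_at (-0.011 to 0.19), Tpm2 1449577_PM_x_at (-0.054 to 0.0825), Cald1 1424769_PM_s_at (-0.011 to 0.0725) and Cald1 1433147_PM_at (-0.03 to 0.15). The cause of these turns was not tested. The replicate block changed no other call. The number of animals, 4 a group, limits the precision, which also depended on the fit. Printed SEs and intervals are from the fit without the block, except where the block is named. With the block the SE was 0.12 in place of 0.25 for Tpm2 1419738_PM_a_at and 0.09 in place of 0.16 for Cnn2. For Cnn1 it was 0.060 in place of 0.057.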

Other observations

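Among markers of other cells of skin, Tnnt3, a troponin of fast skeletal muscle, had the smallest unadjusted p, with a log2 fold change of -0.21 ± 0.07 (SE; limma unadjusted p = 0.0162, adjusted p = 0.997). The 10 skeletal muscle markers averaged 4.18 to 4.21 in GW9662 samples and 4.20 to 4.28 in vehicle samples. The 8 endothelial markers averaged 4.83 to 5.08 in GW9662 samples and 4.72 to 5.19 in vehicle samples. Keratinocyte markers averaged 4.80 to 4.91 in GW9662 samples and 4.85 to 4.88 in vehicle samples. Leukocyte markers averaged 4.73 to 4.76 in GW9662 samples and 4.73 to 4.87 in vehicle samples. The 3 measured adipocyte markers averaged 4.06 to 4.15 in GW9662 samples and 4.08 to 4.28 in vehicle samples. Single genes lay well above some of these averages. The highest gene mean over all samples was 7.84 for endothelium (Kdr), 6.94 for keratinocytes (Krt10) and 8.22 for leukocytes (Cd68). It was 5.17 for skeletal muscle and 5.34 for adipocytes.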
